A study of Homo sapiens with 6 samples.

Results

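The genes described here are 57 that act in G2 and mitosis, out of 58735 gene IDs in the deposited table. They were taken as a named list of symbols, matched to Ensembl gene IDs through GENCODE release 29, and all 57 were found. Of these, 56 had a mean level of at least 1 FPKM (fragments scaled to exon length and library size) over the 3 libraries of at least 1 cell line and entered the tests, as did 15638 genes in all. The exception was PRC1. The list was not chosen by its values, but earlier results of these data were known when it was drawn up.

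The H660 and C4-2B MDVR prostate cancer lines were each given siRNA 1 against PLXND1, siRNA 2 against PLXND1 or a control siRNA, and 1 mRNA library was made from each, which gives 6 libraries. The siRNAs share 1 control per line. PLXND1 encodes Plexin D1, a semaphorin receptor, which the series considers as a target in the shift of treatment-resistant prostate cancer towards a neural lineage. C4-2B MDVR is a derivative of C4-2B that resists the prostate cancer drug enzalutamide, and H660 (NCI-H660) is a line of neuroendocrine prostate cancer. The siRNA doses, the time of harvest and whether libraries came from separate cultures are not given in the sources used here, so p-values measure only the spread between these libraries, which may be technical.

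Entry into mitosis depends on CDK1, a kinase that needs a cyclin partner and is switched on by CDC25 phosphatases. The kinases PLK1, AURKA and AURKB then drive spindle building and chromosome attachment. The spindle checkpoint holds anaphase back until every kinetochore is attached, and the anaphase-promoting complex with its activator CDC20 ends mitosis by marking cyclin B and securin for destruction. Most of these genes are transcribed late in the cell cycle. The MuvB core binds a promoter element called CHR (cell cycle genes homology region), with B-MYB (MYBL2) and FOXM1 when the genes are on and with p130 or p107 and E2F4, as the DREAM complex, when they are off. NF-Y binds CCAAT boxes in many of the same promoters. CDKN1A (p21) inhibits cyclin-dependent kinases and favours the DREAM state. In whole-culture RNA a lower share of cells in G2 or mitosis and less of these transcripts per cell cannot be told apart.

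The promoters are shown because they carry what these genes share at the sequence level, which the choice of genes did not use. Of the 57 genes, 48 matched the RefSeq promoter table (GRCh38.p14, 250 bases before to 50 after each annotated start, 60 promoters). The CHR was searched as TTTGAA and TTTAAA and the CCAAT box as CCAAT, each on both strands. A CHR was found for 42 of the 48 genes (87.5%), against 27.9% of all 27305 genes in the table, 65.9% of 41 further G2 and mitosis genes and 11.9% of 42 G1 and S phase genes. Within 50 bases of a start it was found for 37 of 48 genes (77.1%), against 9.41% of all genes. At least 1 CCAAT was found for 77.1% of the 48 genes, against 39.7% of all genes, and at least 2 for 47.9%, against 12.9%. Genes with several starts counted once if any of their promoters held the letters. A match describes these letters and shows neither binding nor a cause. The 150 bases before the start of 6 genes follow, 5′ to 3′, with CHR and CCAAT letters in capitals. In CCNB1, CCNB2 and PLK1 a CHR starts 30, 29 and 29 bases before the annotated start, with CCAAT boxes further upstream. For CDK1 the more upstream of its annotated starts is used. MYBL2 is shown for contrast, as 1 of the 6 matched genes with neither TTTGAA nor TTTAAA. Other forms of the CHR were not searched.
CCNB1 (GRCh38, chr5:69167000-69167149, plus strand): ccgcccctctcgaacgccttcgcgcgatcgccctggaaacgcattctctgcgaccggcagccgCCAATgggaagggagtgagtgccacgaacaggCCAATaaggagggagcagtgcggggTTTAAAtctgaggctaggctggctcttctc
CCNB2 (GRCh38, chr15:59104996-59105145, plus strand): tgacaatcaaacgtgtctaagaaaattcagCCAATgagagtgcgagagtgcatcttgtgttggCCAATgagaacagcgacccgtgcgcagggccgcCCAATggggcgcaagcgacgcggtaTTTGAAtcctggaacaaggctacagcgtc
CDC20 (GRCh38, chr1:43358831-43358980, plus strand): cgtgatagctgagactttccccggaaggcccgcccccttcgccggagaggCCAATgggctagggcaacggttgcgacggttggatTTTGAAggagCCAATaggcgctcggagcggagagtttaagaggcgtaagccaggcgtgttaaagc
PLK1 (GRCh38, chr16:23678739-23678888, plus strand): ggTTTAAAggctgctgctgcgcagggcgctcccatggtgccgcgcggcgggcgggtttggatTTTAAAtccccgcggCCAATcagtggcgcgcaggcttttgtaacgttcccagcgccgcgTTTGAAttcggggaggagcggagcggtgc
CDK1 (GRCh38, chr10:60778181-60778330, plus strand): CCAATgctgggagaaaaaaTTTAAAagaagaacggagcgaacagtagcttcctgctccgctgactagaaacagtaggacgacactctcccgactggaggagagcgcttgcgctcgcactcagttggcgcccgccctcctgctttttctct
MYBL2 (GRCh38, chr20:43666964-43667113, plus strand): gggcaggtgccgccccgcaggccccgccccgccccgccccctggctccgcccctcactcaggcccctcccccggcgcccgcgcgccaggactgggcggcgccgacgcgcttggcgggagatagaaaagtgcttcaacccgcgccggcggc

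Before the genes themselves, the libraries were checked. They held 17655802 to 24105369 fragments assigned to genes. PLXND1 was at 1.57 FPKM with siRNA 1 and 3.10 FPKM with siRNA 2, against 7.40 FPKM in the control in C4-2B MDVR. In H660 PLXND1 was at 7.62 and 7.54 FPKM with siRNA 1 and siRNA 2 against 9.13 FPKM in the H660 control. The luminal prostate marker KLK3 was at 0.0335 to 0.104 FPKM in H660 and 77.5 to 228 FPKM in C4-2B MDVR, and the neuroendocrine marker CHGA at 45.8 to 50.6 FPKM in H660 and 0 to 0.0777 FPKM in C4-2B MDVR. The immune marker PTPRC and the endothelial marker PECAM1 reached at most 0.0232 and 0.0350 FPKM in any library. Of the 3 fibroblast markers COL1A2 and PDGFRB stayed under 1 FPKM. COL1A1 was at 5.06 and 3.29 FPKM with siRNA 1 and siRNA 2, against 3.16 FPKM in the C4-2B MDVR control, and was thus highest in the library where the mitotic genes were low. It was at 1.43 and 1.17 FPKM with siRNA 1 and siRNA 2, against 1.44 FPKM in the H660 control. Its part in the results was not tested. Mitochondrial transcripts took 7.44% and 6.83% of fragments with siRNA 1 and siRNA 2 in C4-2B MDVR, against 3.38% in the control, and 8.58% to 9.64% in H660. The lowest of the 6 shares was thus that of the control in C4-2B MDVR. For that reason siRNA 1 is also set directly against siRNA 2 below, which leaves that control out. These siRNA libraries differed in other genes too. In C4-2B MDVR KLK3 was at 115% of the control with siRNA 1 and 39.2% with siRNA 2.

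In C4-2B MDVR the mitotic genes were lower than the control across nearly the whole list with siRNA 1, while with siRNA 2 they lay on both sides of it. With siRNA 1, 55 of 56 genes were below the control, as were 45.2% of all genes. The median difference was −0.53 on the log2(FPKM + 1) scale, and 22 (39.3%) were at least 1.5-fold lower, where 5.13% of all tested genes were. None was at least 1.5-fold higher, against 7.42% of all genes, and the median over all genes was 0.01. With siRNA 2 the median difference was −0.02, with 29 genes below the control (44.3% of all genes) and 27 above. At least 1.5-fold lower were 0 of 56 genes, against 4.66% of all genes, and 1 was at least 1.5-fold higher, CDC25C, against 5.53%. PLXND1 itself was lower with siRNA 1 than with siRNA 2 in this line, as given above. There is 1 library per siRNA and line, so these are counts and sizes with no test. They depend on the scaling: with short RNA genes left out and the FPKM rescaled, the median over all genes was −0.15 with siRNA 1 and −0.16 with siRNA 2, that of the mitotic genes −0.76 and −0.27, and 50 and 4 of them were at least 1.5-fold lower, where 11.3% and 9.33% of all genes were. With mitochondrial genes left out the mitotic medians were −0.59 and −0.12.

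**Figure D1:**
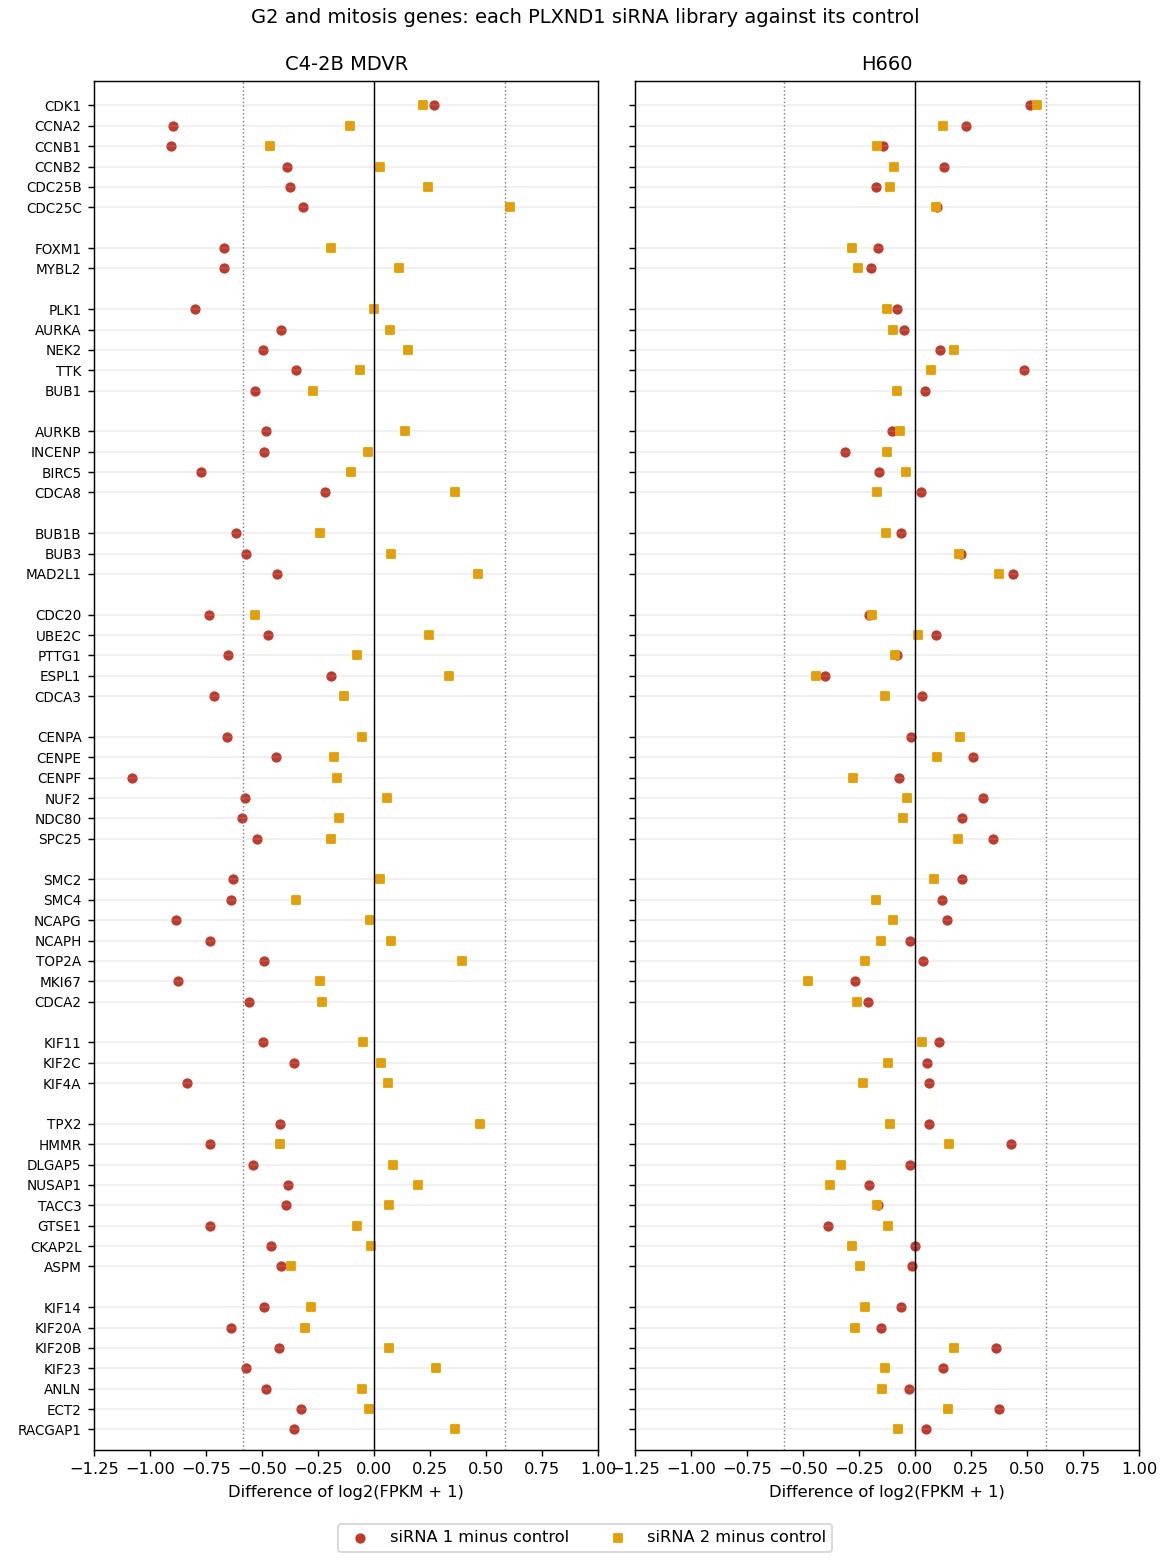
Difference of log2(FPKM + 1) between each PLXND1 siRNA library and the control of its line, for the 56 tested G2 and mitosis genes grouped by role from CDK1 and its partners (top) to cytokinesis (bottom). Circles are siRNA 1 and squares siRNA 2, 1 library each, and dotted lines mark 1.5-fold. In C4-2B MDVR the circles lie left of 0 for 55 of 56 genes, CDK1 being the exception, while the squares lie on both sides; in H660 no symbol passes a dotted line.

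All 57 genes together took 0.282% of the fragments with siRNA 1 and 0.414% with siRNA 2, against 0.460% in the C4-2B MDVR control. In H660 they took 0.708% and 0.645%, against 0.706% in the control. In C4-2B MDVR the exact 95% binomial intervals were 0.279% to 0.284% with siRNA 1 and 0.411% to 0.417% with siRNA 2; all intervals here cover counting error only, and the labels name no molecular identifiers. In summed FPKM siRNA 2 was closer to the control, at 1127 FPKM against 1136 FPKM. The deposited FPKM imply library totals of 0.926 and 0.920 times the recovered fragments with siRNA 1 and siRNA 2, against 1.01 times in the control. Genes given below as at or slightly above that control with siRNA 2 are so in the deposited FPKM. Per assigned fragment such genes can lie below it. The direct comparison of the siRNAs leaves the control out. Of 56 genes, 25 (44.6%) were at least 1.5-fold lower with siRNA 1 than with siRNA 2, against 7.72% of all genes, 0 were at least 1.5-fold higher, against 8.03%, and the median difference was −0.58.

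**Figure D2:**
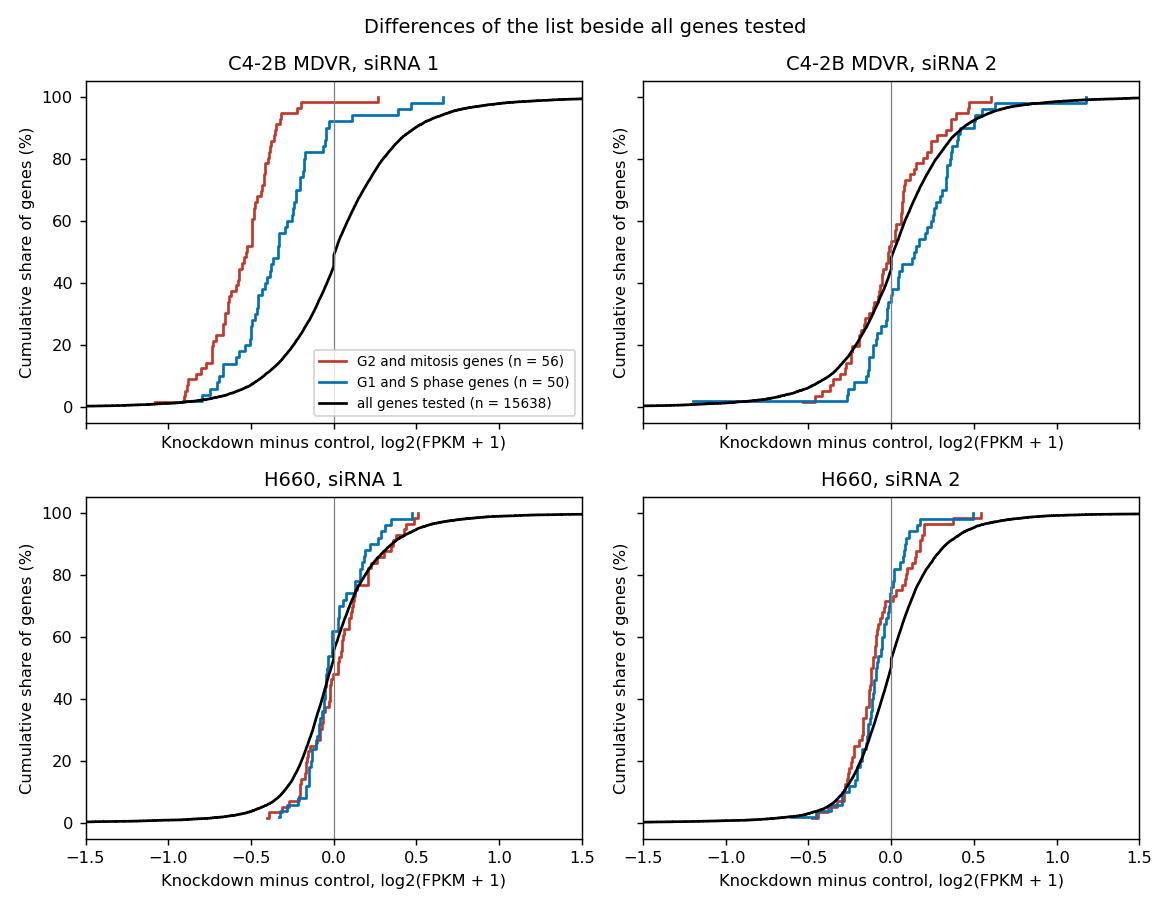
Cumulative share of genes (percent) against the knockdown minus control difference of log2(FPKM + 1), for the 56 G2 and mitosis genes, 50 G1 and S phase genes and all 15638 genes tested, 1 panel per knockdown library. With siRNA 1 in C4-2B MDVR the mitotic curve is centred at −0.53 and that of all genes at 0.01; in the other 3 panels the median of the mitotic genes lies between −0.12 and 0.03.

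No single gene passed the test for a knockdown effect. In C4-2B MDVR limma called 0 of 56 genes (0% of all 15638 tested), with 2 at an unadjusted p under 0.05 (5.89% of all genes), CCNB1 (−0.68 ± 0.23 log2 units, SE) and CDC20 (−0.63 ± 0.17, the lowest adjusted p of the list, 0.744), and voom on recovered fragments also called 0 of 56. The number at an unadjusted p under 0.05 moved with the setting. It was 12 by voom (6.28% of all genes), 13 with short RNA genes left out (9.90%) and 5 with mitochondrial genes left out (5.24%). With 1 knockdown library left out, the spread comes only from the siRNA pair of the other line, so only effect sizes are given. The median over the 56 genes in C4-2B MDVR was −0.02 without its siRNA 1 library and −0.53 without its siRNA 2 library. In H660 limma called 0 of 56 (0% of all), with 1 at an unadjusted p under 0.05 (4.14% of all genes), CDK1 (0.53 ± 0.14), and 0 by voom. The fits on all libraries average siRNA 1 and siRNA 2, whose difference is the spread the test is set against, and have 2 residual degrees of freedom. A second fit kept the siRNAs apart and used the lines as replicates. Its spread is set by how far the siRNA effects differed between the lines. An effect confined to 1 line thus adds to the spread that it is tested against. For siRNA 1 over control this fit called 0 of 56, with 5 at an unadjusted p under 0.05 (3.62% of all genes). These were GTSE1, INCENP, CDC20, MKI67 and CCNB1, each lower than the control. For siRNA 2 over control it called 0 of 56, with 0 at that level (3.72% of all genes). For siRNA 1 over siRNA 2 it called 0 of 56, with 1 at that level, GTSE1 (3.40% of all genes). In each of these contrasts 0% of all genes were called, and voom called 0 of 56. The difference of the knockdown effect between H660 and C4-2B MDVR was also tested for each gene. It called 0 of 56 (0% of all), with 1 at an unadjusted p under 0.05, HMMR (4.48% of all genes), and 0 by voom.

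CDK1 and its partners differed in direction. CDK1, the kinase that starts mitosis (ENSG00000170312, chromosome 10), was at 66.3 FPKM with siRNA 1 and 63.9 FPKM with siRNA 2, against 54.9 FPKM in the control in C4-2B MDVR. In H660 CDK1 was at 59.8 and 61.2 FPKM with siRNA 1 and siRNA 2 against 41.7 FPKM in the H660 control. It was above the control in all 4 knockdown libraries and was the 1 tested gene of the list above the control with siRNA 1 in C4-2B MDVR, at 121% (95% interval 116% to 126%) of the control. In H660 it was at 143% (95% interval 138% to 149%) and 147% (95% interval 141% to 153%) of the control, the largest difference upwards of the list with either siRNA. Rescaling the libraries without short RNAs put the mean C4-2B MDVR effect on CDK1 at −0.02, against 0.24 as deposited. Its partner cyclin B1, CCNB1 (ENSG00000134057, chromosome 5), went the other way, at 36.5 and 49.97 FPKM with siRNA 1 and siRNA 2 against 69.3 FPKM in the C4-2B MDVR control, which is 52.7% (95% interval 49.8% to 55.7%) and 72.1% (95% interval 68.3% to 76.1%) of the control. In H660 CCNB1 was at 32.1 and 31.5 FPKM with siRNA 1 and siRNA 2 against 35.5 FPKM in the H660 control. Cyclin A2, CCNA2, which binds CDK1 before cyclin B does, was at 8.75 and 15.8 FPKM with siRNA 1 and siRNA 2 against 17.2 FPKM in the C4-2B MDVR control. In H660 CCNA2 was at 20.3 and 18.8 FPKM with siRNA 1 and siRNA 2 against 17.2 FPKM in the H660 control. Its lowest library was siRNA 1 in C4-2B MDVR, and in H660 both knockdown libraries were above the control. CCNB2, the second B-type cyclin, was at 75.4% and 102% of the C4-2B MDVR control. The phosphatase CDC25C, which removes the inhibitory phosphates from CDK1, was at 2.77 and 6.14 FPKM with siRNA 1 and siRNA 2 against 3.70 FPKM in the C4-2B MDVR control, from 256 fragments in the control, so the siRNA 2 library was the highest of the 3. In H660 CDC25C was at 12.98 and 12.95 FPKM with siRNA 1 and siRNA 2 against 12.1 FPKM in the H660 control. The related phosphatase CDC25B was at 8.82 and 14.1 FPKM with siRNA 1 and siRNA 2 against 11.8 FPKM in the C4-2B MDVR control, the same order of libraries. In H660 CDC25B was at 64.6 and 67.5 FPKM with siRNA 1 and siRNA 2 against 73.03 FPKM in the H660 control.

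**Figure D3:**
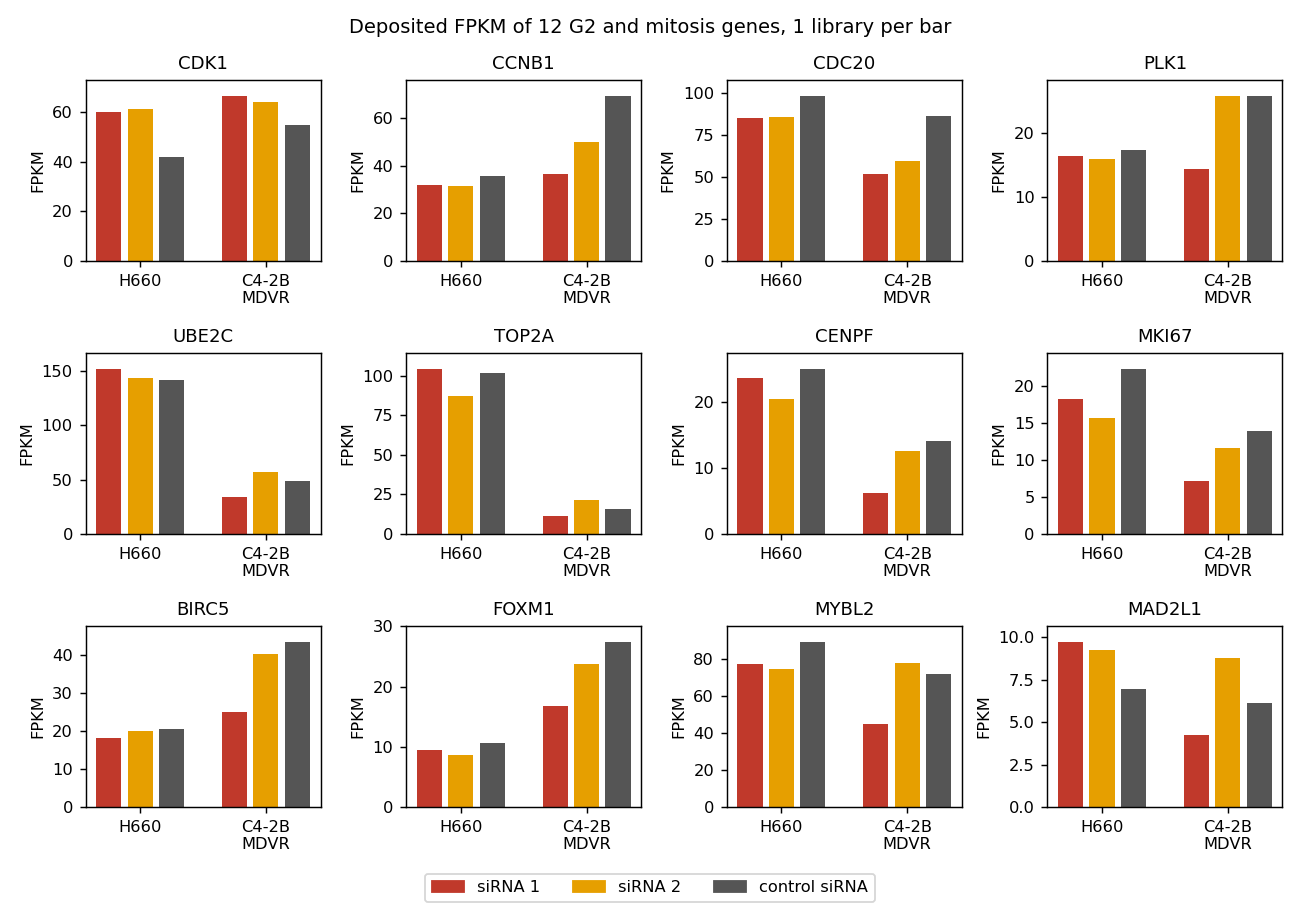
Deposited FPKM of 12 G2 and mitosis genes in the H660 and C4-2B MDVR libraries, 1 library per bar (siRNA 1, siRNA 2, control siRNA); each panel has its own axis from 0. CDK1 is above its control in all 4 knockdown libraries, while CENPF reaches 6.19 FPKM with siRNA 1, against 14.2 FPKM in the C4-2B MDVR control.

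Both transcription factors of the programme were below the control with siRNA 1 in C4-2B MDVR. FOXM1 was at 16.8 FPKM with siRNA 1 and 23.8 FPKM with siRNA 2, against 27.4 FPKM in the control, and MYBL2 (B-MYB) at 44.8 FPKM with siRNA 1 and 77.9 FPKM with siRNA 2, against 72.03 FPKM in the control. As shares of the control these are 61.5% (95% interval 57.9% to 65.4%) and 62.3% (95% interval 59.2% to 65.4%) with siRNA 1. With siRNA 2, FOXM1 stayed below the control and MYBL2 was slightly above it in the deposited FPKM. In H660 FOXM1 was at 9.40 and 8.58 FPKM with siRNA 1 and siRNA 2 against 10.7 FPKM in the H660 control, and MYBL2 at 77.6 and 74.5 FPKM with siRNA 1 and siRNA 2 against 89.2 FPKM in the H660 control, so all 4 knockdown values there were below their control, the lowest being FOXM1 with siRNA 2 at 80.4%.

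Of the 5 mitotic kinases, PLK1, which acts at centrosomes, kinetochores and the midzone, had the lowest difference with siRNA 1 in C4-2B MDVR. It was at 14.3 FPKM with siRNA 1 and 25.7 FPKM with siRNA 2, against 25.7 FPKM in the control. In H660 PLK1 was at 16.3 and 15.8 FPKM with siRNA 1 and siRNA 2 against 17.4 FPKM in the H660 control. In C4-2B MDVR PLK1 was thus at 55.7% (95% interval 52.1% to 59.5%) of the control with siRNA 1, and at its level with siRNA 2 in the deposited FPKM. AURKA, which matures centrosomes, was at 19.9 and 28.3 FPKM with siRNA 1 and siRNA 2 against 26.9 FPKM in the C4-2B MDVR control, and NEK2, which separates them, at 12 and 19.3 FPKM with siRNA 1 and siRNA 2 against 17.3 FPKM in the C4-2B MDVR control. In H660 NEK2 was at 26.1 and 27.4 FPKM with siRNA 1 and siRNA 2 against 24.2 FPKM in the H660 control. In H660 AURKA was at 28.4 and 27.4 FPKM with siRNA 1 and siRNA 2 against 29.4 FPKM in the H660 control. BUB1, the checkpoint kinase that marks centromeric histone H2A, was at 6.33 and 7.78 FPKM with siRNA 1 and siRNA 2 against 9.60 FPKM in the C4-2B MDVR control. In H660 BUB1 was at 21.7 and 19.8 FPKM with siRNA 1 and siRNA 2 against 21.1 FPKM in the H660 control. By deposited FPKM, AURKA and NEK2 were highest with siRNA 2 in C4-2B MDVR, and BUB1 in the control. TTK (MPS1), which starts checkpoint signalling, was at 3.98 and 5.07 FPKM with siRNA 1 and siRNA 2 against 5.35 FPKM in the C4-2B MDVR control. In H660 TTK was at 23.6 and 17.5 FPKM with siRNA 1 and siRNA 2 against 16.6 FPKM in the H660 control; its siRNA 1 library in H660 stood above the other 2.

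The chromosomal passenger complex, which corrects faulty attachments and later guides cytokinesis, had a median difference of −0.49 log2 units with siRNA 1 and 0.05 with siRNA 2 in C4-2B MDVR. Its survivin gene BIRC5 was at 25.04 and 40.4 FPKM with siRNA 1 and siRNA 2 against 43.5 FPKM in the C4-2B MDVR control, 57.6% (95% interval 54.4% to 60.9%) and 92.9% (95% interval 88.2% to 97.8%) of the control. In H660 BIRC5 was at 18.3 and 20 FPKM with siRNA 1 and siRNA 2 against 20.6 FPKM in the H660 control. The scaffold gene INCENP was at 12 and 16.9 FPKM with siRNA 1 and siRNA 2 against 17.3 FPKM in the C4-2B MDVR control. In H660 INCENP was at 16.8 and 19.3 FPKM with siRNA 1 and siRNA 2 against 21.2 FPKM in the H660 control. Borealin, CDCA8, was at 17.2 and 26.2 FPKM with siRNA 1 and siRNA 2 against 20.2 FPKM in the C4-2B MDVR control, and the kinase subunit AURKB was at 70.2% and 110.3% of that control. In H660 CDCA8 was at 40.8 and 35.4 FPKM with siRNA 1 and siRNA 2 against 40.1 FPKM in the H660 control. All 4 subunits were below the control with siRNA 1 and 2 of 4 with siRNA 2, and in H660 their shares of the control ran from 79.6% to 102%.

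All 3 spindle checkpoint genes were below the control with siRNA 1 in C4-2B MDVR. MAD2L1, whose product is loaded onto CDC20 to block it, was at 4.25 FPKM with siRNA 1 and 8.79 FPKM with siRNA 2, against 6.10 FPKM in the control. In H660 MAD2L1 was at 9.71 and 9.26 FPKM with siRNA 1 and siRNA 2 against 6.93 FPKM in the H660 control. It was thus above the control in 3 of the 4 knockdown libraries, at 144% (95% interval 130.3% to 159.5%) of it with siRNA 2 in C4-2B MDVR and 140.2% (95% interval 129% to 152%) and 134% (95% interval 123% to 145%) of it in H660. BUB3, its partner in the checkpoint complex, was at 10.3 and 16.7 FPKM with siRNA 1 and siRNA 2 against 15.8 FPKM in the C4-2B MDVR control. In H660 BUB3 was at 29.6 and 29.4 FPKM with siRNA 1 and siRNA 2 against 25.6 FPKM in the H660 control, so both knockdown libraries were above it. BUB1B (BUBR1) was at 6.42 and 8.62 FPKM with siRNA 1 and siRNA 2 against 10.4 FPKM in the C4-2B MDVR control. In H660 BUB1B was at 16.8 and 15.99 FPKM with siRNA 1 and siRNA 2 against 17.6 FPKM in the H660 control. BUB1B was below the control in each of the 4 knockdown libraries.

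Genes of the anaphase-promoting complex pathway include CDC20, its activator, which was low with either siRNA in C4-2B MDVR. CDC20 (ENSG00000117399, chromosome 1) was at 51.6 FPKM with siRNA 1 and 59.6 FPKM with siRNA 2, against 86.7 FPKM in the control, 59.6% (95% interval 56.4% to 62.9%) and 68.8% (95% interval 65.1% to 72.7%) of the control. In H660 CDC20 was at 85.1 and 85.9 FPKM with siRNA 1 and siRNA 2 against 98.2 FPKM in the H660 control. Its difference with siRNA 2, −0.53 log2 units, was the lowest of the list in that library. The ubiquitin-conjugating enzyme gene UBE2C was at 34.4 and 57.4 FPKM with siRNA 1 and siRNA 2 against 48.3 FPKM in the C4-2B MDVR control. In H660 UBE2C was at 152 and 143 FPKM with siRNA 1 and siRNA 2 against 142 FPKM in the H660 control. Securin, PTTG1, which holds separase inactive, was at 24.6 and 37.1 FPKM with siRNA 1 and siRNA 2 against 39.2 FPKM in the C4-2B MDVR control. In H660 PTTG1 was at 68.4 and 68.02 FPKM with siRNA 1 and siRNA 2 against 72.5 FPKM in the H660 control. The separase gene ESPL1 was at 5.63 and 8.56 FPKM with siRNA 1 and siRNA 2 against 6.59 FPKM in the C4-2B MDVR control. In H660 ESPL1 was at 15.4 and 14.97 FPKM with siRNA 1 and siRNA 2 against 20.7 FPKM in the H660 control. On the log2(FPKM + 1) scale it had the lowest difference of the list with siRNA 1 in H660. It was at 74.34% (95% interval 71.04% to 77.8%) of the control there, while GTSE1 was at 74.28%. With siRNA 2 ESPL1 was at 72.3% (95% interval 69.1% to 75.5%) of the control. CDCA3, an adaptor that targets the CDK1 inhibitor WEE1, was at 56.8% and 90.1% of the C4-2B MDVR control.

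At the centromere, CENPF, a large kinetochore protein that peaks in G2 and M, had the lowest difference of the whole list. It was at 6.19 FPKM with siRNA 1 and 12.6 FPKM with siRNA 2, against 14.2 FPKM in the control in C4-2B MDVR, 43.6% (95% interval 40.97% to 46.3%) and 88.4% (95% interval 83.9% to 93.2%) of the control, from 3444 control fragments. In H660 it was at 23.8 and 20.5 FPKM with siRNA 1 and siRNA 2 against 25.04 FPKM in the H660 control. CENPA, the histone H3 variant of centromeres, was at 5.76 and 9.25 FPKM with siRNA 1 and siRNA 2 against 9.66 FPKM in the C4-2B MDVR control. In H660 CENPA was at 17.1 and 20.1 FPKM with siRNA 1 and siRNA 2 against 17.4 FPKM in the H660 control. Of the NDC80 complex, which binds microtubules, NUF2 was at 6.90 and 11.2 FPKM with siRNA 1 and siRNA 2 against 10.8 FPKM in the C4-2B MDVR control. In H660 NUF2 was at 27.96 and 21.9 FPKM with siRNA 1 and siRNA 2 against 22.5 FPKM in the H660 control. NDC80 was at 7.13 and 9.97 FPKM with siRNA 1 and siRNA 2 against 11.2 FPKM in the C4-2B MDVR control. In H660 NDC80 was at 24.5 and 20.2 FPKM with siRNA 1 and siRNA 2 against 21.03 FPKM in the H660 control. In each of these genes the siRNA 1 library was the lowest of the 3 in C4-2B MDVR, and NUF2 and NDC80 were highest with siRNA 1 in H660. SPC25, of the same complex, and the motor gene CENPE were at 66.4% and 65.6% of the C4-2B MDVR control with siRNA 1, and at 86.1% and 84.6% of it with siRNA 2.

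Chromosome structure genes had a median of −0.64 log2 units with siRNA 1 in C4-2B MDVR and −0.02 with siRNA 2. With siRNA 1, 5 of 7 were at least 1.5-fold lower, where 5.13% of all tested genes were. The condensin subunit gene NCAPG was at 5.45 FPKM with siRNA 1 and 10.7 FPKM with siRNA 2, against 10.9 FPKM in the control, 49.99% (95% interval 45.03% to 55.5%) of the control with siRNA 1. In H660 NCAPG was at 16.2 and 13.5 FPKM with siRNA 1 and siRNA 2 against 14.6 FPKM in the H660 control. MKI67, which encodes the proliferation marker Ki-67 that coats mitotic chromosomes, was at 7.18 and 11.7 FPKM with siRNA 1 and siRNA 2 against 14.03 FPKM in the C4-2B MDVR control. In H660 MKI67 was at 18.3 and 15.7 FPKM with siRNA 1 and siRNA 2 against 22.3 FPKM in the H660 control. It was below the control in all 4 knockdown libraries and had the lowest difference of the list with siRNA 2 in H660, at 70.4% (95% interval 67.9% to 72.9%) of the control. TOP2A, the topoisomerase that untangles sister chromatids, was at 11.1 and 21.3 FPKM with siRNA 1 and siRNA 2 against 15.95 FPKM in the C4-2B MDVR control. In H660 TOP2A was at 104 and 86.8 FPKM with siRNA 1 and siRNA 2 against 102 FPKM in the H660 control. SMC4, a core subunit of condensin, was at 13.2 and 16.3 FPKM with siRNA 1 and siRNA 2 against 21.04 FPKM in the C4-2B MDVR control. In H660 SMC4 was at 28.9 and 23.5 FPKM with siRNA 1 and siRNA 2 against 26.6 FPKM in the H660 control. SMC2, NCAPH and CDCA2 were at 60.7%, 57.8% and 63.5% of the C4-2B MDVR control with siRNA 1, and at 102%, 106% and 82.9% of it with siRNA 2. In the deposited FPKM SMC2 and NCAPH were thus slightly above the control with siRNA 2 and CDCA2 below it.

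All 3 spindle kinesins and all 8 spindle assembly genes were below the control with siRNA 1 in C4-2B MDVR, with medians of −0.50 and −0.44 log2 units. The chromokinesin gene KIF4A was at 7.49 and 14.8 FPKM with siRNA 1 and siRNA 2 against 14.2 FPKM in the C4-2B MDVR control, and the microtubule depolymerase gene KIF2C at 16.4 and 21.8 FPKM with siRNA 1 and siRNA 2 against 21.3 FPKM in the C4-2B MDVR control. In H660 KIF4A was at 20.4 and 16.4 FPKM with siRNA 1 and siRNA 2 against 19.5 FPKM in the H660 control. In H660 KIF2C was at 40.7 and 35.96 FPKM with siRNA 1 and siRNA 2 against 39.2 FPKM in the H660 control. Both kinesin genes were lowest with siRNA 1 in C4-2B MDVR. TPX2, which activates AURKA on spindles, was at 30.1 and 56.7 FPKM with siRNA 1 and siRNA 2 against 40.6 FPKM in the C4-2B MDVR control, so siRNA 2 was the highest of the 3 libraries. In H660 TPX2 was at 80.9 and 71.7 FPKM with siRNA 1 and siRNA 2 against 77.7 FPKM in the H660 control. HMMR, a microtubule-binding protein of spindle poles, was at 18.04 and 22.7 FPKM with siRNA 1 and siRNA 2 against 30.7 FPKM in the C4-2B MDVR control. In H660 HMMR was at 26.5 and 21.7 FPKM with siRNA 1 and siRNA 2 against 19.5 FPKM in the H660 control. HMMR was below the control with either siRNA in C4-2B MDVR and above it with either in H660, a difference between lines that did not pass. ASPM, a spindle pole protein, was at 2.16 and 2.26 FPKM with siRNA 1 and siRNA 2 against 3.22 FPKM in the C4-2B MDVR control, with close values for both siRNAs. In H660 ASPM was at 8.27 and 6.92 FPKM with siRNA 1 and siRNA 2 against 8.38 FPKM in the H660 control. GTSE1, which is expressed in G2 and binds microtubules, was at 6.45 and 10.7 FPKM with siRNA 1 and siRNA 2 against 11.4 FPKM in the C4-2B MDVR control. In H660 GTSE1 was at 8.88 and 10.9 FPKM with siRNA 1 and siRNA 2 against 11.95 FPKM in the H660 control. NUSAP1, which bundles spindle microtubules, was at 3.59 and 5.87 FPKM with siRNA 1 and siRNA 2 against 4.999 FPKM in the C4-2B MDVR control. In H660 NUSAP1 was at 6.62 and 5.74 FPKM with siRNA 1 and siRNA 2 against 7.78 FPKM in the H660 control. The kinesin gene KIF11 and DLGAP5, TACC3 and CKAP2L were at 68.3%, 67.4%, 74.8% and 66.5% of the C4-2B MDVR control with siRNA 1, and at 96.3%, 106%, 105% and 98.7% of it with siRNA 2. In the deposited FPKM DLGAP5 and TACC3 were thus slightly above the control with siRNA 2.

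Cytokinesis genes had the median −0.48 with siRNA 1 and −0.02 with siRNA 2 in C4-2B MDVR. KIF20A (MKLP2), which carries the passenger complex to the midzone, was at 11.1 and 14.2 FPKM with siRNA 1 and siRNA 2 against 17.9 FPKM in the C4-2B MDVR control, and KIF23 (MKLP1), a subunit of centralspindlin, at 2.35 and 5.02 FPKM with siRNA 1 and siRNA 2 against 3.98 FPKM in the C4-2B MDVR control. In H660 KIF23 was at 15.5 and 12.8 FPKM with siRNA 1 and siRNA 2 against 14.1 FPKM in the H660 control. In H660 KIF20A was at 24.04 and 22.1 FPKM with siRNA 1 and siRNA 2 against 26.9 FPKM in the H660 control. KIF20A was below the control in all 4 knockdown libraries. RACGAP1, the other subunit of centralspindlin, was at 17.2 and 28.9 FPKM with siRNA 1 and siRNA 2 against 22.3 FPKM in the C4-2B MDVR control. In H660 RACGAP1 was at 19.9 and 18.1 FPKM with siRNA 1 and siRNA 2 against 19.2 FPKM in the H660 control. In C4-2B MDVR both centralspindlin genes were above the control with siRNA 2 and below it with siRNA 1. ECT2, the exchange factor that turns on RhoA at the cleavage site, was at 27.3 and 33.96 FPKM with siRNA 1 and siRNA 2 against 34.5 FPKM in the C4-2B MDVR control. In H660 ECT2 was at 31.5 and 26.7 FPKM with siRNA 1 and siRNA 2 against 24.03 FPKM in the H660 control. KIF14 was at 3.73 and 4.48 FPKM with siRNA 1 and siRNA 2 against 5.65 FPKM in the C4-2B MDVR control and KIF20B at 3.30 and 5.05 FPKM with siRNA 1 and siRNA 2 against 4.77 FPKM in the C4-2B MDVR control, and the anillin gene ANLN was at 69.5% and 96.1% of that control. In H660 KIF20B was at 4.0 and 3.39 FPKM with siRNA 1 and siRNA 2 against 2.89 FPKM in the H660 control. In H660 KIF14 was at 7.08 and 6.22 FPKM with siRNA 1 and siRNA 2 against 7.44 FPKM in the H660 control. PRC1, the midzone crosslinker, was listed at 0.171 and 0.156 FPKM, against 0.236 FPKM in the C4-2B MDVR control, from 27 control fragments. In H660 PRC1 was at 0.616 and 0.555 FPKM with siRNA 1 and siRNA 2 against 0.600 FPKM in the H660 control. Its exons are shared over 57.6% of their bases with AC068831.7, an overlapping gene on the same strand, which was at 0.424 and 0.491 FPKM, against 0.385 FPKM in the C4-2B MDVR control, so the PRC1 level here is uncertain.

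In H660 the mitotic list as a whole lay near the control. With siRNA 1 the median difference was 0.03 log2 units over 56 genes, with 27 below the control (52.9% of all genes) and 29 above. With siRNA 2 it was −0.12, with 40 below (50.3% of all genes) and 16 above. At least 1.5-fold lower were 0 of 56 with siRNA 1 (2.72% of all genes) and 0 of 56 with siRNA 2 (2.21%), and at least 1.5-fold higher 0 with each (3.81% and 3.42%). The medians over all genes were −0.02 and 0. Set directly against siRNA 2, siRNA 1 was the lower in H660 for 9 of 56 genes, where 47.6% of all genes were lower, and the median was 0.13. Neither direction held a difference of 1.5-fold, which 2.94% of all genes had downwards and 2.34% upwards. In C4-2B MDVR siRNA 1 was the lower for 55 of 56, while 48.0% of all genes were below. The sizes of this difference did not go together over the 56 genes in the 2 lines (Pearson r = 0.05, a description across genes that share libraries). PLXND1 was at 83.5% and 82.6% of the control in H660 and at 21.2% and 41.8% in C4-2B MDVR.

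Other cell-cycle lists put these values in context. A list of 50 further G2 and mitosis genes held none of the 57. With siRNA 1 in C4-2B MDVR, 14 of 50 were at least 1.5-fold lower, where 5.13% of all tested genes were. The list had a median of −0.42 log2 units with siRNA 1 and 0.06 with siRNA 2. Its lowest members with siRNA 1 were the kinase gene MELK (11 and 26.2 FPKM with siRNA 1 and siRNA 2, against 24.2 FPKM in the control) and DEPDC1 (9.47 and 13.4 FPKM, against 18.4 FPKM). The 50 G1 and S phase genes had a median of −0.34 with siRNA 1, with 8 at least 1.5-fold lower (5.13% of all genes), and 0.14 with siRNA 2. The flap endonuclease gene FEN1 was at 16.5 and 29.4 FPKM with siRNA 1 and siRNA 2 against 31.9 FPKM in the C4-2B MDVR control, and the replicative helicase subunit gene MCM2 at 17.8 and 34.8 FPKM with siRNA 1 and siRNA 2 against 31.8 FPKM in the C4-2B MDVR control. The 14 measured subunits of the anaphase-promoting complex, which are not periodic, had medians of 0.04 and −0.02. By limma, adjusted over all genes, 0 genes of these lists passed for a knockdown effect in either line.

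CDKN1A (p21) was above the control with either siRNA in C4-2B MDVR, at 422 FPKM with siRNA 1 and 346 FPKM with siRNA 2, against 47.5 FPKM in the control. In H660 CDKN1A was at 96.3 and 94.5 FPKM with siRNA 1 and siRNA 2 against 92.6 FPKM in the H660 control. E2F1, a driver of S phase genes, was at 34.7 and 55.6 FPKM with siRNA 1 and siRNA 2 against 44.03 FPKM in the C4-2B MDVR control. In H660 E2F1 was at 101 and 111 FPKM with siRNA 1 and siRNA 2 against 105 FPKM in the H660 control. The part of p21 in the levels of the mitotic genes was not tested.

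Between the lines, most of the mitotic genes were higher in H660. The median line difference was 0.64 log2 units over 56 genes, and 0 over all genes, with 44 of the 56 higher in H660 and 12 lower. All genes, by their unrounded median of −0.0035, were lower in H660 at least as often as higher. By limma, with the adjusted p under 0.05 and at least a 2-fold difference, 14 of 56 were higher in H660, against 20.1% of all genes, and 1 of 56 (1.79%) was lower, against 17.9% of all genes. In all 15 of 56 (26.8%) passed, against 38.0% of all genes. The share upwards was near the background, and so is no result about these genes.

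**Figure D4:**
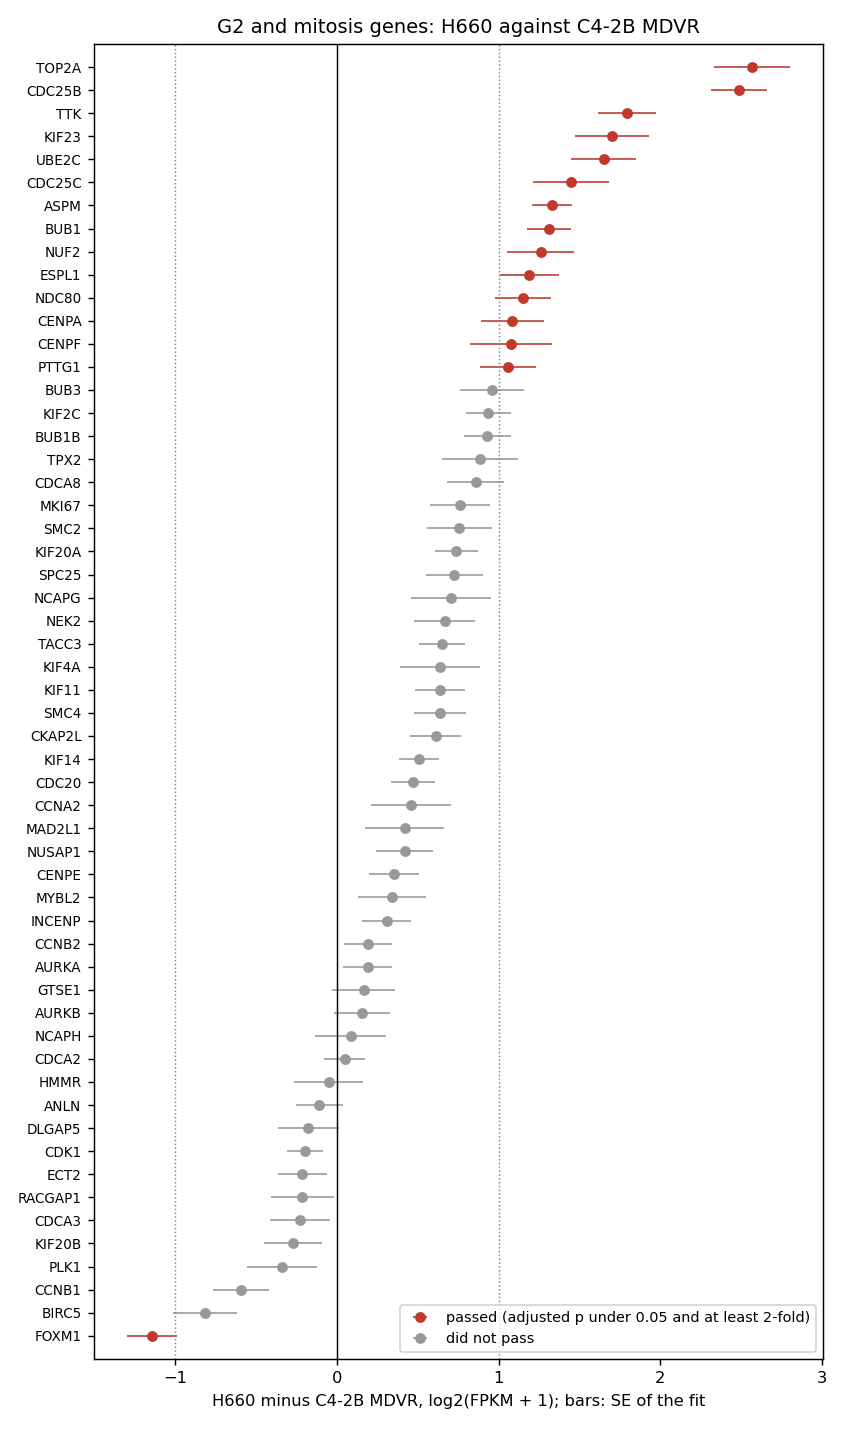
H660 minus C4-2B MDVR difference of log2(FPKM + 1) for the 56 tested G2 and mitosis genes, sorted, with bars for the SE of the limma fit on 3 libraries per line; dotted lines mark 2-fold and coloured points passed. TOP2A (2.57 ± 0.24) and CDC25B (2.49 ± 0.17) are at the top and FOXM1 (−1.14 ± 0.15) is at the bottom.

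TOP2A had the largest line difference of the list, at 97.5 ± 9.31 FPKM in H660 and 16.1 ± 5.10 FPKM in C4-2B MDVR (SD, n = 3 each; 2.57 ± 0.24 log2 units, adjusted p = 0.000186 by limma). CDC25B followed, at 68.4 ± 4.29 FPKM in H660 and 11.5 ± 2.63 FPKM in C4-2B MDVR (2.49 ± 0.17 log2 units, adjusted p = 6.29e-05 by limma). For each of the 14 genes that passed upwards, TOP2A, CDC25B and UBE2C among them, every H660 library was above every C4-2B MDVR library. These genes were picked by the test on the same libraries, so the separation largely follows from that choice and is no further support. The SDs are over the siRNA 1, siRNA 2 and control libraries of a line, so they include differences between treatments. TTK averaged 19.2 ± 3.83 FPKM in H660 and 4.80 ± 0.724 FPKM in C4-2B MDVR (1.79 ± 0.18), KIF23 14.1 ± 1.35 FPKM in H660 and 3.78 ± 1.35 FPKM in C4-2B MDVR (1.70 ± 0.23) and UBE2C 146 ± 5.23 FPKM in H660 and 46.7 ± 11.5 FPKM in C4-2B MDVR (1.65 ± 0.20). UBE2C was the most abundant gene of the list in H660, and CDC20 in the C4-2B MDVR control. The other genes that passed upwards were CDC25C (1.45 ± 0.24), ASPM (1.33 ± 0.12), BUB1 (1.31 ± 0.14), NUF2 (1.26 ± 0.21), ESPL1 (1.19 ± 0.18), NDC80 (1.15 ± 0.17), CENPA (1.08 ± 0.20), CENPF (1.07 ± 0.25) and PTTG1 (1.06 ± 0.17), in log2 units with the SE.

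FOXM1 was the 1 gene lower in H660 that passed, at 9.55 ± 1.05 FPKM in H660 and 22.7 ± 5.35 FPKM in C4-2B MDVR (SD, n = 3 each; −1.14 ± 0.15 log2 units, adjusted p = 0.000893 by limma). BIRC5 was at 19.6 ± 1.19 FPKM in H660 and 36.3 ± 9.87 FPKM in C4-2B MDVR (−0.82 ± 0.20), CCNB1 at 33.02 ± 2.20 FPKM in H660 and 51.9 ± 16.5 FPKM in C4-2B MDVR (−0.59 ± 0.17), PLK1 at 16.5 ± 0.775 FPKM in H660 and 21.9 ± 6.58 FPKM in C4-2B MDVR (−0.34 ± 0.22) and KIF20B at 3.43 ± 0.553 FPKM in H660 and 4.38 ± 0.938 FPKM in C4-2B MDVR (−0.27 ± 0.18), none of them 2-fold apart. The partner of FOXM1 in this programme, MYBL2, was at 80.5 ± 7.72 FPKM in H660 and 64.9 ± 17.6 FPKM in C4-2B MDVR (0.34 ± 0.21). The C4-2B MDVR means include the siRNA 1 library, where most of these genes were low. Without it PTTG1 (0.86), CENPF (0.77), NDC80 (0.98) and CENPA (0.87) were under 2-fold, and 12 genes passed, of which 2 were lower in H660. CENPF (0.97) without the H660 siRNA 1 library and CENPA (0.98) without the H660 siRNA 2 library were also under 2-fold. With mitochondrial genes left out the line difference had a median of 0.91 over the mitotic genes and 0.26 over all genes, and FOXM1, at −0.87, did not reach 2-fold. The order of the 56 genes by level in the H660 control and the C4-2B MDVR control was alike (Spearman rho = 0.74, a description across genes).

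The genes were also split by the promoter element. In C4-2B MDVR the median with siRNA 1 was −0.54 log2 units over the 41 tested genes with TTTGAA or TTTAAA. It was −0.51 over 6 with neither and −0.48 over 9 with no promoter entry. Genes with neither may hold other forms of the CHR, which were not searched. CDK1 holds the CHR letters like CCNB1, CCNB2, CDC20 and PLK1 above, and MYBL2 and CCNA2 hold none in their windows. Some exons are shared with other genes. Exons of NCAPG (33.1% of bases), SMC4 (25.6%) and FOXM1 (15.9%) overlap genes on the opposite strand, and the sources used here do not say whether counting used strand. NUSAP1 shares 62.2% of its exon bases with AC087721.2 on its own strand, which was listed at 0 in every library. How fragments in the shared bases were assigned was not tested, so the NUSAP1 level is also uncertain. Of 20 annotated copies of these genes, named pseudogenes and PTTG2, none reached 1 FPKM in any library, the highest being UBE2CP2 at 0.667 FPKM.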

How the data were processed

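The mRNA of 6 libraries was sequenced with paired-end reads on a NovaSeq instrument, per the labels' protocols. The deposited values are FPKM, made by the authors with HISAT and Cufflinks on build hg18, per the submitters' processing notes. GENCODE 29 (GRCh38) holds all 58735 gene IDs, and names, exon lengths and chromosomes were taken from it. The build in the notes, hg18, is not that of this annotation, so the notes and the deposited table conflict on this point. FPKM times exon length gave whole multiples of 1 step per library, within 0.05 fragments, for 100% of the genes checked, and fragments were recovered from that step. Promoters are from RefSeq (GRCh38.p14).

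Log2(FPKM + 1) was tested with limma 3.58.1 in R 4.3.3 (moderated test with intensity trend, two-sided, Benjamini-Hochberg adjustment over 15638 genes with a mean of at least 1 FPKM in at least 1 line, threshold 0.05, and at least 2-fold between lines). The fold scale understates changes of low genes. The knockdown fits use 4 groups of line and treatment, and the siRNA fits use line and siRNA, each with 2 residual degrees of freedom. The fit between lines uses line and treatment (control or knockdown), with 3 residual degrees of freedom. A single library was set against its control without a test, with an exact 95% binomial interval for the ratio of fragments and a fold of 1.5 for counts. The code was tested on simulated data. Alternatives were a pseudocount of 0.1, no filter, quantile normalization, short RNA or mitochondrial genes left out, voom on the recovered fragments, a replicate block and leaving out libraries. The genes, the other lists and the alternatives were chosen with earlier results of these data known. Values in every library are given for the 2 most abundant genes of each role, those with the largest differences, and those that passed a test, other genes being given as percentages or in the plots. Some marker and list genes are not reported here.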

Additional observations from a re-analysis of the deposited data

Results flagged for a closer look

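For 7 of the 56 genes both knockdown libraries of H660 lay above their control and both of C4-2B MDVR below theirs, which is 12.5% of them. Of all 15638 genes tested, 1228 (7.85%) had the same signs. The difference between the lines was tested for each by the limma interaction and did not pass, with an adjusted p of 0.985 for every one. The difference of the mean effects, H660 minus C4-2B MDVR, was 0.87 log2 units for HMMR, 0.68 for CCNA2, 0.63 for SPC25, 0.49 for CENPE, 0.48 for TTK, 0.44 for ECT2 and 0.34 for KIF11. For HMMR the knockdown minus control values were 0.43 and 0.15 with siRNA 1 and siRNA 2 in H660, and −0.73 and −0.42 in C4-2B MDVR. For CCNA2 they were 0.23 and 0.12 in H660, and −0.90 and −0.11 in C4-2B MDVR. In C4-2B MDVR the siRNA 2 values of ECT2 (−0.02), KIF11 (−0.05) and TTK (−0.07) lay close to the control.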

How the results depend on the processing

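No knockdown call was made for the 56 genes under any alternative run, and the median with siRNA 1 in C4-2B MDVR stayed below 0, while its size and the siRNA 2 values moved. That median was −0.59 with a pseudocount of 0.1, −0.76 with short RNA genes left out, −0.59 with mitochondrial genes left out and −0.73 with voom. For siRNA 2 it was −0.073 with quantile normalization, −0.27 with short RNA genes left out, −0.12 with mitochondrial genes left out and −0.16 with voom. In H660 it was 0.0011 for siRNA 1 with short RNA genes left out, and for siRNA 2 −0.15 with quantile normalization, −0.17 with short RNA genes left out, −0.15 with mitochondrial genes left out and −0.14 with voom.

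Under alternatives chosen after seeing the data, 50 genes (short RNA genes left out) and 43 (voom) were at least 1.5-fold lower with siRNA 1 in C4-2B MDVR, against 22. Of all genes 11.3% and 15.8% were, against 5.13%. With siRNA 2, 1, 4, 1 and 3 genes were lower with quantile normalization, short RNA genes left out, mitochondrial genes left out and voom, where 4.42%, 9.33%, 6.06% and 14.4% of all genes were. At least 1.5-fold higher were 0 under the first 3 of these. The CDK1 effect in C4-2B MDVR was −0.024 with short RNA genes left out. The causes were not tested. Over all genes the knockdown tests called 851 genes in C4-2B MDVR and 876 in H660 without the filter on low values, against 0 with it, and the line interaction 1372 against 0. The line difference had 12 to 22 calls over all settings, and 12 to 20 with 1 library left out. FOXM1 was at −0.87 with mitochondrial genes left out, CENPF at 0.97 without siRNA 1 of H660 and CENPA at 0.98 without siRNA 2 of H660, all under 2-fold.

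The same siRNA numbers were used in both lines. The deviations of siRNA 1 from siRNA 2 in the lines had r = −0.0043 over all genes and 0.05 over the 56. In H660 PLXND1 was at 83.5% and 82.6% of the control with siRNA 1 and siRNA 2. With the target so alike there, a low r cannot show whether the numbers pair the libraries. With the replicate block, 0 knockdown calls and 15 line calls were made, as without it. With 1 library per siRNA and line, a difference between siRNAs cannot be told apart from one between libraries.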
